A study of Mus musculus with 10 samples.

Results

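Cathepsins and their cystatin inhibitors were followed in RNA-seq of mouse prostate cells from groups labelled with and without deletion of Arid1a, which encodes a subunit of the SWI/SNF chromatin remodelling complex. The genes are 7 cathepsins (Ctsb, Ctsc, Ctsd, Ctsh, Ctsl, Ctss and Ctsz) and 3 cystatins (Cstb, Cst3 and Cst6), found by symbol as 10 of the 48897 rows of each table. They were picked with their difference between the libraries labelled Arid1a-deleted and the controls already known. That difference is therefore given below as a description, with threshold calls but no printed p-value, and supports nothing by itself. The prostate epithelium came from 3-month-old C57BL/6 mice and was sorted as EpCAM+ CD45- cells. The control group, whose label names no Arid1a deletion, had 3 libraries (A, B and C), and the group labelled Arid1aPC-/- had 3 (A, B and C). The controls came from engineered mice too, with an allele that both groups share, and are not wild-type prostate. The Arid1a deletion is driven by Cre under the Probasin promoter, which acts in prostate epithelium. Myc-CaP is a mouse prostate cancer line of FVB background from a c-Myc transgenic animal. It gave 2 empty vector (EV) libraries and 2 Arid1a KO libraries made with lentiviral CRISPR guides, and whether the 2 KO libraries are separate clones or guides is not stated.

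Epithelial values were deposited as RPKM (reads scaled to gene length and library size) and Myc-CaP values as TPM (scaled to length and then to a fixed sum). Both are levels per length, so genes can be ranked within a table, but the 2 tables were normalised separately and no level is tested between them. Depth estimated from the steps between low RPKM values was 28.8 to 36.2 times 1e+06 reads per epithelial library, and the relative depth of the Myc-CaP libraries was 0.867 to 1. In the epithelium the gene-level RPKM of Arid1a itself was 27.8, 21.9 and 26.5 in the controls and 31.1, 28.8 and 30.8 in the libraries labelled Arid1aPC-/-. It was therefore not lower under that label, and a whole-gene value cannot show the loss of a floxed exon, so the epithelial groups are named below as they were labelled. In Myc-CaP, Arid1a fell from 60.5 and 61.0 TPM to 39.5 and 40.3 TPM (log2 fold change -0.59, adjusted p = 0.0102, limma). Nothing states that the libraries of a group came from separate cultures, so p-values measure the spread between these libraries.

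Cathepsins are proteases of the endosome and lysosome. Most are cysteine proteases of the papain family, while cathepsin D is an aspartic protease. They are made as inactive precursors, carried to the lysosome largely through mannose 6-phosphate receptors, and activated there by removal of a propeptide, for some of them by legumain. Cystatins are tight-binding inhibitors of the papain-type enzymes and do not block cathepsin D. Stefin B, the product of Cstb, acts inside the cell, whereas cystatin C (Cst3) and cystatin E/M (Cst6) are secreted. In tumours, cathepsins B, L and S have been linked to matrix breakdown and are abundant in macrophages as well as in carcinoma cells.

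The promoters of the genes that moved most are shown because several of them were higher together. RefSeq windows on GRCm38.p6 were matched for 6 of the 10 genes (Ctsc, Ctsd, Ctsl, Ctss, Ctsz and Cst3), and there was no entry for Ctsb, Ctsh, Cstb and Cst6. The 120 bases that end just before the RefSeq start site are printed 5′ to 3′ on the gene's strand for the 4 cathepsins with the largest rise among those 6 genes and for Cst3, the gene that fell, with capitals on the matches described below.
Ctsc, chr7:88277965-88278084, plus strand: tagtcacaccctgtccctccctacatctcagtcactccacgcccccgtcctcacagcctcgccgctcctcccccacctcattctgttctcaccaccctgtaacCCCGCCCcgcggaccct
Ctss, chr3:95526666-95526785, plus strand: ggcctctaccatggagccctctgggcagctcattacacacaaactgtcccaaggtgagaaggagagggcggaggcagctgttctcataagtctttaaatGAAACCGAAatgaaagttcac
Ctsz, chr2:174439040-174439159, minus strand: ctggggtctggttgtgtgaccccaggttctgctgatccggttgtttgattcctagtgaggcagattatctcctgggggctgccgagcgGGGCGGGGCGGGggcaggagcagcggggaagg
Ctsd, chr7:142387828-142387947, minus strand: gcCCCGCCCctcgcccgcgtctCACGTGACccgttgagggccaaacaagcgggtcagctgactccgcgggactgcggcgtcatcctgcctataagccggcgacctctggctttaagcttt
Cst3, chr2:148875513-148875632, minus strand: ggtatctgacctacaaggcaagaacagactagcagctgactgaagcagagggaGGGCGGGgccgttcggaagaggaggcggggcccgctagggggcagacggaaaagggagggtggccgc

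Motifs were searched on both strands in the full windows, which run from 250 bases before to 50 bases after the start, and shares are over all 32851 such windows. GTCACGTG, the E-box extended as in the element of lysosomal genes that binds TFEB, was in 2.25% of windows, and CACGTG, which it contains, in 7.15%. Ctsd held GTCACGTG at 245 and at 98 bases before its start, and Ctsl held CACGTG at 236 bases before its start. The RefSeq starts of Ctsd, Ctsl and Cst3 lie inside the gene spans given below. The Ctsl match and the Ctsd match at 98 bases therefore fall within those spans, not upstream of them. The motif GGGCGGG, which Sp1 binds, was in 25.6% of windows and in those of Ctsc, Ctsd, Ctsz and Cst3. GAAANNGAA, part of the element bound by interferon regulatory factors, was in 8.56% of windows and lay 21 bases before the start of Ctss. GAGGAAGT, the core bound by PU.1 of myeloid cells, was in 3.2% of windows. It lay 151 bases before the start of Ctsc and, in Ctss, began 2 bases before the start and ran past it. No single motif of these was shared by all 4 cathepsins printed. A match describes these letters and is not a measured binding site.

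In the sorted epithelium, 9 of the 10 genes were expressed highly enough to be tested (mean RPKM of at least 0.5), and Cst6 was not. At an adjusted p-value under 0.05 in limma over all 16275 genes tested, 7 passed as higher and 1 as lower in the libraries labelled Arid1aPC-/-. For comparison, 27.5% of all genes tested passed as higher and 29.6% as lower, and because the genes were picked on this contrast nothing is read from the count. In either direction, 57.1% of all genes passed. Under the rule the study used, which asks for 1.5-fold and a raw p-value of less than 0.05, 5 were higher and 1 was lower, against 11.8% and 13.0% of all genes and 24.8% in either direction. The 2 groups did not overlap for 7 higher and 1 lower of the 9, against 32.4% and 34.4% of all genes and 66.7% in either direction. The 9 genes had a median log2 fold change of 0.64, and all tested genes one of -0.03. In bulk RNA, more cells of a type and more RNA per cell cannot be told apart.

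**Figure D1:**
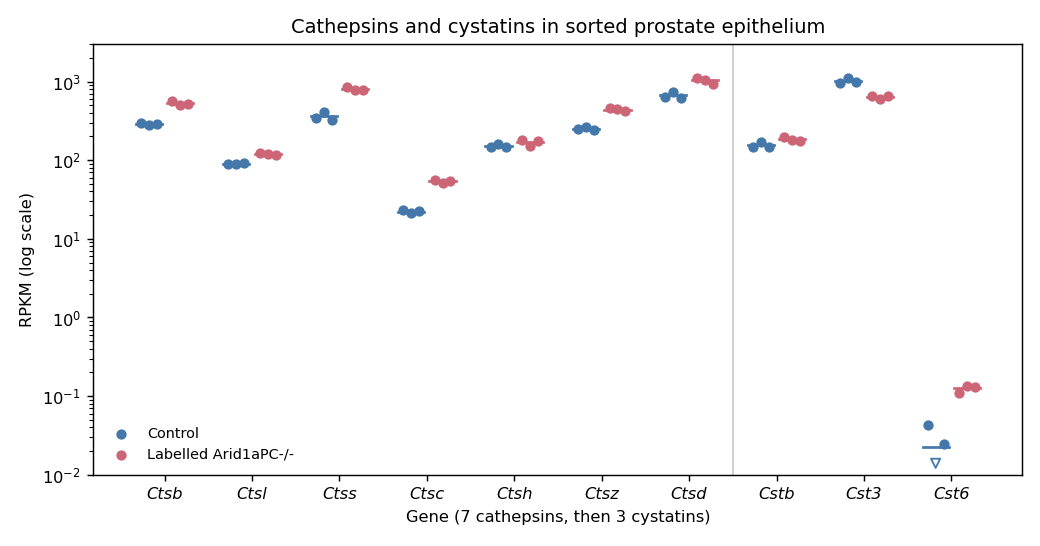
RPKM on a log scale of the 7 cathepsins and 3 cystatins in each epithelial library, with blue points for the 3 controls, red points for the 3 libraries labelled Arid1aPC-/-, bars at group means and an open triangle for a value of 0. Every red point lies above every blue point for Ctsb, Ctsl, Ctss, Ctsc, Ctsz, Ctsd, Cstb and Cst6, the groups overlap for Ctsh, and Cst3 lies lower.

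Among the endopeptidases, cathepsin S differed most. Ctss, which encodes a protease of antigen-presenting cells that trims the MHC class II invariant chain, had 345, 414 and 326 RPKM in controls A, B and C. In the libraries labelled Arid1aPC-/- it had 855, 789 and 791 RPKM. The lowest of these was far above the highest control, and the log2 fold change was 1.17 ± 0.108 (SE, n = 3 against 3). Ctss was on average the 190th most abundant row in the controls and the 44th in the other group. Its annotated span, chr3:95526786-95556403 on GRCm38, also holds the pseudogene Hmgb1-ps5 on the same strand.

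Ctsb, at chr14:63122462-63145923, encodes a cathepsin that can act both within chains and at the carboxyl end. Its level was 293, 283 and 285 RPKM in the controls and 571, 510 and 519 RPKM in the libraries labelled Arid1aPC-/-. The controls lay within a few RPKM of each other and the 2 groups were far apart, with a log2 fold change of 0.89 ± 0.077. Ctsb shares bases with Fdft1 on the other strand. Ctsl, at chr13:64359337-64370890, encodes a broadly expressed endopeptidase. Its span shares bases with Gm49230 on the same strand and Gm47123 on the other, so the counting could have split reads. Ctsl went from 88.3, 89.1 and 91.4 RPKM to 124, 121 and 117 RPKM, a log2 fold change of 0.42 ± 0.058 that passed the adjusted threshold but not the 1.5-fold one. The ratio of Ctss to Ctsl was 4.04 ± 0.55 (SD, n = 3) in controls and 6.74 ± 0.196 in the other group, without overlap.

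The exopeptidases did not move together. Ctsc (chr7:88278085-88310888) encodes dipeptidyl peptidase I, which activates the serine proteases of granulocytes, mast cells and cytotoxic lymphocytes. It was the least abundant of the 7 cathepsins, at 23.0, 21.1 and 22.5 RPKM in the controls and 56.2, 50.8 and 54.1 RPKM in the libraries labelled Arid1aPC-/-. Its log2 fold change of 1.24 ± 0.066 was the highest of the 9 tested genes. That of Ctss came next, and these 2 alone among the 9 exceeded the 95th percentile of all tested genes, which was 0.95.

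Ctsz (chr2:174427493-174439039) encodes a carboxypeptidase with an integrin-binding propeptide. Its level was 246, 265 and 240 RPKM in the controls and 454, 441 and 416 RPKM in the other group, with no overlap and a log2 fold change of 0.80 ± 0.077. The gene shares bases with Nelfcd on the other strand. Ctsh (chr9:90054152-90076089) encodes an aminopeptidase known for processing surfactant protein in lung. It had 146, 161 and 146 RPKM in the controls and 180, 150 and 174 RPKM in the libraries labelled Arid1aPC-/-. The 2 groups overlapped, because library B of the second group lay below control B, and the log2 fold change of 0.15 ± 0.088 did not pass the threshold. With every library rescaled to the same sum it became 0.33 and passed.

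Ctsd (chr7:142375911-142388038) encodes the aspartic cathepsin D, the most abundant cathepsin message in both groups. It had 636, 742 and 617 RPKM in the controls and 1107, 1056 and 943 RPKM in the libraries labelled Arid1aPC-/-. The groups did not overlap and the log2 fold change was 0.64 ± 0.112. The annotation places Gm49369 on the same strand over part of Ctsd, so the counting could have split reads between them. Ctsd made up 36.4% ± 1.03 (SD, n = 3) of the summed cathepsin RPKM in controls and 32.7% ± 1.32 in the other group. The share of Ctss was 19.7% ± 1.08 and 25.7% ± 0.484, and that of Ctsh 8.26% ± 0.143 and 5.32% ± 0.478.

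Of the 3 cystatins, Cst3 was lower, Cstb was higher, and Cst6, too low to test, had higher values in the libraries labelled Arid1aPC-/-. Cst3 (chr2:148871722-148875692), which encodes the secreted inhibitor cystatin C, was the most abundant of the 10 genes in the controls, with 964, 1104 and 988 RPKM. In the libraries labelled Arid1aPC-/- it had 658, 597 and 653 RPKM. All 3 of these lay well under the lowest control, and Cst3 fell by 0.68 on the log2 scale (SE 0.097). Cstb (chr10:78425669-78427622), which encodes the cytosolic stefin B, had 146, 169 and 149 RPKM in the controls and 196, 182 and 178 RPKM in the other group. The groups did not overlap, but control B came close to the lowest library of the other group. The log2 fold change of 0.26 ± 0.081 passed the threshold with all 6 libraries and did not with control A, control C, or library A or B of the other group left out. Cst6 (chr19:5344705-5349574) was barely present, at 0.0427 RPKM, listed at 0, and 0.0244 RPKM in controls A, B and C and at 0.108, 0.136 and 0.132 RPKM in the other group, and was not tested.

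The order of levels in the controls was Cst3, Ctsd, Ctss, Ctsb, Ctsz, Cstb, Ctsh, Ctsl, Ctsc and Cst6. The only neighbours in it whose libraries overlapped were Cstb and Ctsh. In the libraries labelled Arid1aPC-/- the order became Ctsd, Ctss, Cst3, Ctsb, Ctsz, Cstb, Ctsh, Ctsl, Ctsc and Cst6, and Cstb and Ctsh again overlapped. Cst3 thus lost first place to Ctsd and also lay below Ctss. Summed over the 7 cathepsins, the level was 1826 ± 131 RPKM (SD, n = 3) in controls and 3159 ± 170 RPKM in the other group. Summed over the 3 cystatins it was 1173 ± 87.4 RPKM and 821 ± 38.9 RPKM. The ratio of the 2 sums was 1.52 to 1.60 in the controls and 3.63 to 4.01 in the other group. Cst3 supplied 86.8% ± 0.0705 of the cystatin sum in controls and 77.4% ± 1.04 in the other group. The cathepsin sum includes Ctsd, whose product cystatins do not block, and without Ctsd it was 1161 ± 64.3 RPKM in controls and 2124 ± 100 RPKM in the other group. These sums weigh messages and say nothing of enzyme activity.

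Markers of some blood cells were higher beside the cathepsins, although the cells were sorted as CD45-. Those of mast cells, given below, were mostly lower. All 8 of 8 macrophage markers passed as higher, among them Adgre1, Csf1r, Cd68, C1qa, C1qb, C1qc and Mrc1, at a median of 0.80 on the log2 scale. Their sum was 1605 to 1906 RPKM in controls and 2363 to 2850 RPKM in the libraries labelled Arid1aPC-/-. Ptprc, which encodes CD45, had 28.6 ± 2.3 RPKM (SD, n = 3) in controls and 57.3 ± 0.983 RPKM in the other group, and no macrophage or leukocyte marker was at 0. Of the 8 neutrophil markers 4 were higher and 1 lower. Of the 4 dendritic cell markers 1 passed, Itgax, as higher, and the other 3 did not pass. Of the 4 B cell markers 3 passed as higher. Of 5 T and NK cell markers 4 were tested, and 1 passed as higher and 1 as lower. Beside these marker counts, 27.5% of all genes tested passed as higher and 29.6% as lower. Divided by the macrophage sum of the same library, Ctss was 0.200 to 0.217 in controls and 0.291 to 0.334 in the other group, and Ctsc was 0.0110 to 0.0140 and 0.0197 to 0.0215. The same ratio overlapped between groups for Ctsd (0.369 to 0.389 and 0.347 to 0.447) and Ctsl (0.0468 to 0.0569 and 0.0429 to 0.0511). The groups did not overlap, and the ratio was higher in the second group, for Ctsb, at 0.148 to 0.177 and 0.191 to 0.216, and for Ctsz, at 0.139 to 0.149 and 0.153 to 0.187. It was lower without overlap for Ctsh, at 0.0845 to 0.0906 and 0.0630 to 0.0639, and for Cst3, at 0.559 to 0.615 and 0.231 to 0.252. The part of these cells in the cathepsin levels was not tested.

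All 6 epithelial markers were present in both groups, and of these 2 passed as higher and 2 as lower in the libraries labelled Arid1aPC-/-. For this and the other marker lists, the shares over all genes tested were 27.5% higher and 29.6% lower. Epcam was lower, at 304 ± 40.9 RPKM in controls and 201 ± 21.5 RPKM in the other group, as was Krt18, at 577 ± 63.7 and 444 ± 9.36 RPKM. The basal keratins Krt5 and Krt14 were higher, Krt5 at 302 ± 41.8 and 762 ± 76.0 RPKM and Krt14 at 146 ± 30.2 and 799 ± 105 RPKM. Krt8 had 859 ± 108 and 875 ± 9.05 RPKM and, like Cdh1, did not pass. Of 4 prostate luminal markers 3 passed as lower. The seminal vesicle, mast cell and fibroblast lists also differed. The 6 seminal vesicle genes summed to 18310 to 20710 RPKM in controls and 622.6 to 1573 RPKM in the other group, and all 6 passed as lower. Mast cell markers fell too, with 3 of 4 lower, and fibroblast markers, with 3 of 5 lower. Which cells carried the seminal vesicle messages was not tested. Nor was any part of the cells that these lists mark in the fall of Cst3, which many cell types express.

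Myc-CaP cells gave the same genes in a line with almost no blood cell message. The 8 macrophage markers summed to between 0.823 and 2.08 TPM per library, most of it Cd68, and Ptprc was at most a trace (0.0221 ± 0.0312 TPM in EV, listed at 0 in both KO libraries). Epcam was listed at 0 in both EV libraries and averaged 0.0638 TPM in KO, and Krt8 was at 0.932 ± 0.201 TPM in EV and 39.6 ± 1.02 TPM in KO (SD, n = 2), so the defining epithelial markers were nearly absent from the EV libraries. Of the 10 genes, 7 were tested. Ctss, Ctsc and Cst6 were under the minimum level.

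Of those 7 genes, 2 passed as higher (Ctsb and Cst3) and 1 as lower (Cstb) in KO, where 4.54% and 1.89% of the 13974 genes tested passed, 6.43% in either direction. By the study's rule 0 passed as higher and 1 as lower, against 4.62% and 1.66% of all genes, 6.28% in either direction. In 5 of the 7 the KO libraries both lay above the EV libraries and in 1 below, while 24.9% and 26.6% of all genes were so arranged, 51.5% in either direction. The 7 genes had a median log2 fold change of 0.29 and all tested genes one of -0.01.

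**Figure D2:**
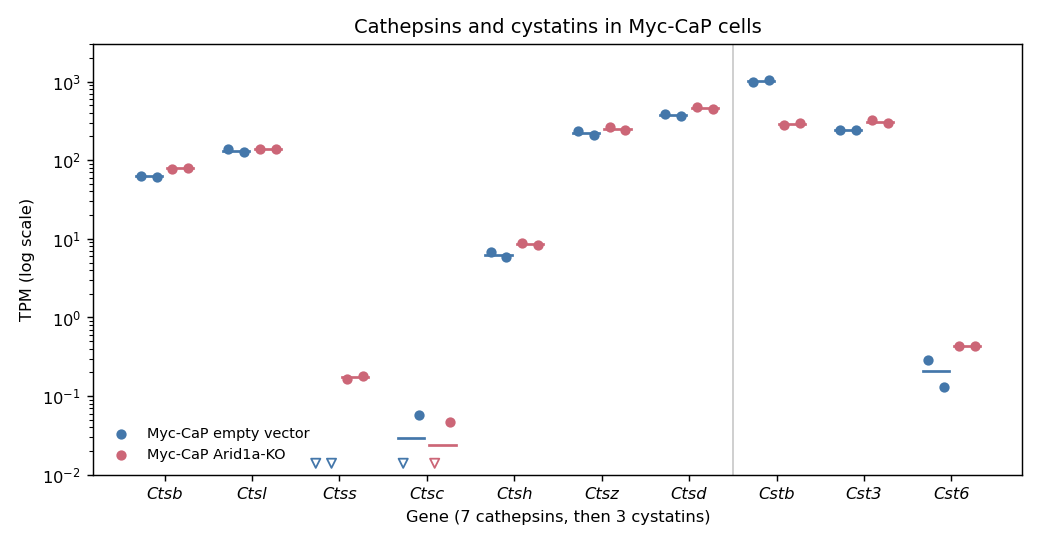
TPM on a log scale of the same 10 genes in each Myc-CaP library, with blue points for the 2 empty vector libraries, red points for the 2 Arid1a KO libraries, bars at group means and open triangles for values of 0. Cstb drops from 975 and 1035 TPM to 280 and 296 TPM, while Ctss and Ctsc lie at or near 0 in all 4 libraries.

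Cstb had the largest fitted change of the tested members in either system. Stefin B had 975 and 1035 TPM in EV, where it was the most abundant of the 10 and on average the 145th row of the table. In KO it had 280 and 296 TPM and was the 528th row. Both KO libraries lay far under both EV libraries, the ratio of the means was 0.287, and the log2 fold change was -1.80 ± 0.061 (SE, n = 2 against 2). Cst3 went from 243 and 241 TPM to 324 and 295 TPM, a log2 fold change of 0.35 ± 0.065. The ratio of Cstb to Cst3 was 4.15 ± 0.211 (SD, n = 2) in EV and 0.935 ± 0.0971 in KO. Cst6 was at 0.289 and 0.131 TPM in EV and 0.429 and 0.433 TPM in KO.

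The cathepsins of Myc-CaP cells differed less. Ctsb had 63.3 and 60.9 TPM in EV and 77.5 and 80.2 TPM in KO, a log2 fold change of 0.34 ± 0.058. The passes of both Ctsb and Cst3 were lost when any one of the 4 libraries was left out. Ctsd had 391 and 362 TPM in EV and 472 and 451 TPM in KO, which did not overlap but did not pass (log2 fold change 0.29 ± 0.063). Ctsz was at 235 and 206 TPM and then at 262 and 238 TPM, a span of 4 values in which the groups nearly touched. Ctsl overlapped, with 138 and 126 TPM in EV and 141 and 137 TPM in KO. In order of level the EV libraries had Cstb, Ctsd, Cst3, Ctsz, Ctsl, Ctsb and Ctsh, with no overlap between neighbours. In KO, Ctsd led, and Cst3 and Cstb followed with libraries that overlapped. Ctsh, at 6.76 and 5.82 TPM and then 8.84 and 8.35 TPM, was the lowest of the 7 tested genes in every library.

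Cathepsins S and C were all but missing in this line. Ctss was listed at 0 in both EV libraries and at 0.167 and 0.182 TPM in KO, and Ctsc was listed at 0 in EV library 1 and KO library 1 and at 0.0582 and 0.0472 TPM in the other two. No fold is given at such levels. These were the 2 genes with the highest log2 fold changes in the epithelium. The sum of the 7 cathepsins was 798 ± 50.9 TPM in EV and 938 ± 31.9 TPM in KO, and that of the 3 cystatins was 1247 ± 40.3 TPM and 598 ± 9.81 TPM. The ratio of the sums was 0.597 to 0.684 in EV and 1.55 to 1.59 in KO. Here too the cathepsin sum includes Ctsd, and without it the sum was 421 ± 30.6 TPM in EV and 477 ± 17.1 TPM in KO. In both systems the cathepsin sum was higher and the cystatin sum lower in the libraries labelled as Arid1a-deleted, with Cst3 the lower cystatin in the epithelium and Cstb in Myc-CaP cells.

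**Figure D3:**
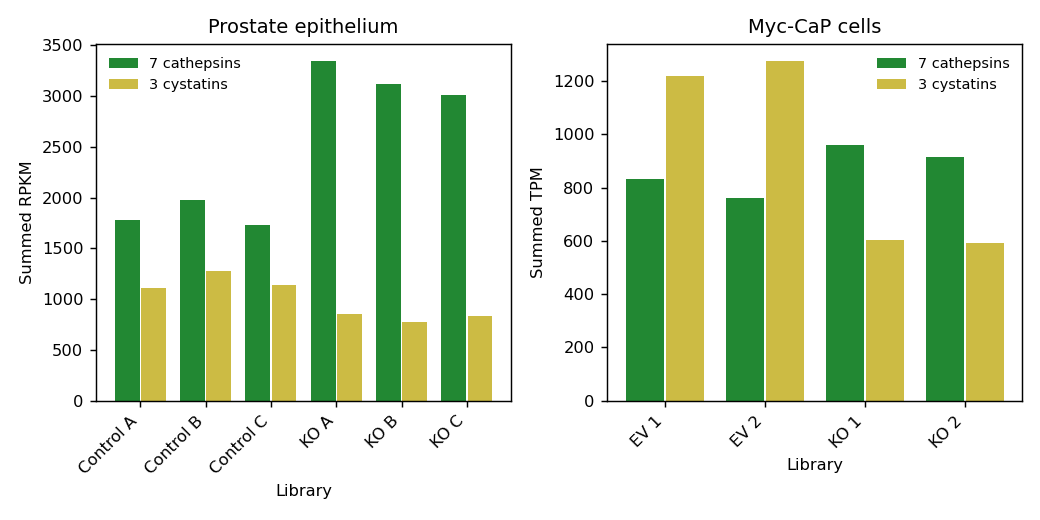
Summed level per library of the 7 cathepsins (green) and of the 3 cystatins (yellow), in RPKM for the epithelium on the left and in TPM for Myc-CaP cells on the right, where KO marks the libraries labelled as Arid1a-deleted and EV the empty vector. The cystatin bars exceed the cathepsin bars only in the 2 EV libraries.

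**Figure D4:**
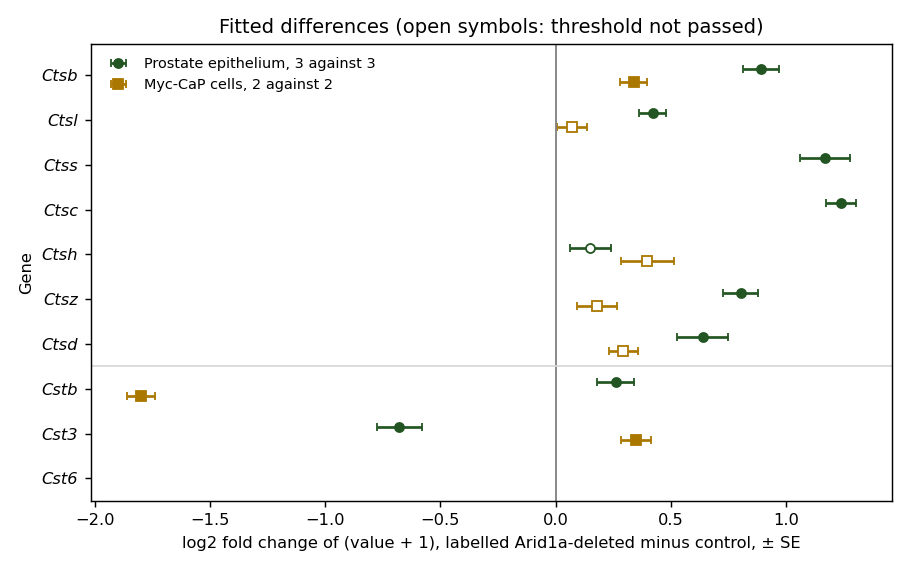
Fitted log2 fold change of (value + 1), libraries labelled Arid1a-deleted minus controls, with SE bars, for the epithelium (circles, 3 libraries against 3) and Myc-CaP cells (squares, 2 against 2). Filled symbols passed an adjusted p-value under 0.05, Cst6 was tested in neither table, and Ctss and Ctsc only in the epithelium. Cstb and Cst3 lie on opposite sides of 0 in the 2 systems.

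Of 16 further cathepsin genes in the epithelial table, 7 were tested, of which 1 passed as higher and 4 as lower. Among all genes tested there, 27.5% passed as higher and 29.6% as lower. Ctsa, the serine carboxypeptidase that protects lysosomal sialidase, rose from 103 ± 4.55 to 123 ± 8.99 RPKM (SD, n = 3, log2 fold change 0.25, adjusted p = 0.0221, limma). Ctsf, a papain-type cathepsin, fell from 29.0 ± 1.48 to 8.25 ± 0.815 RPKM (log2 fold change -1.70, adjusted p = 1.02e-05). Ctsk, the collagenase of osteoclasts and fibroblasts, fell from 18.0 ± 2 to 11.4 ± 2.32 RPKM (adjusted p = 0.00828). Ctsg, a serine protease of neutrophils and mast cells, and Ctsw of cytotoxic lymphocytes were low and passed as lower too (log2 fold changes -0.83 and -0.75). In Myc-CaP cells 2 were tested in limma, and 0 passed or had an unadjusted p-value under 0.05.

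**Figure D5:**
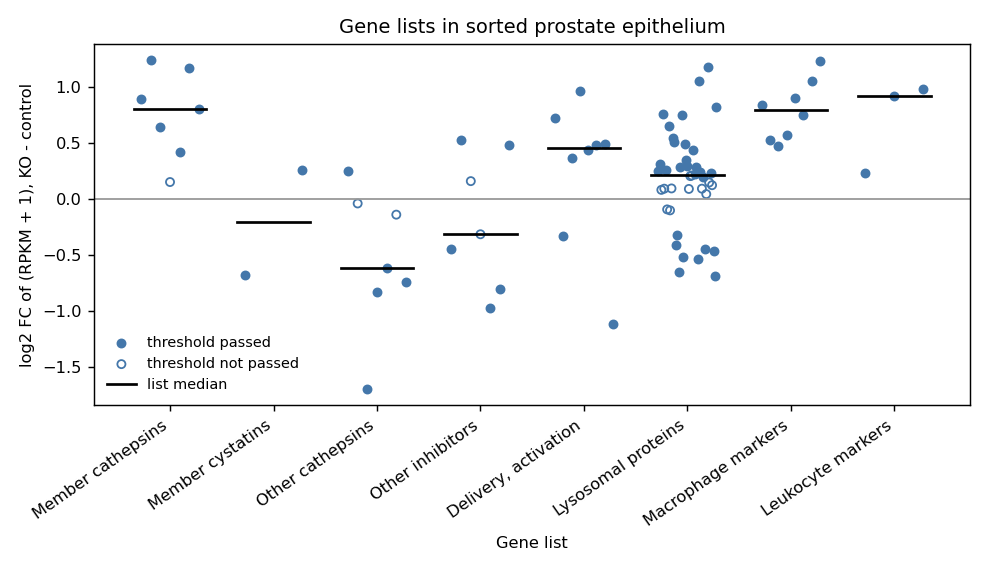
Fitted log2 fold change of (RPKM + 1) in the epithelium, libraries labelled Arid1aPC-/- (KO) minus controls, for each tested gene of 8 lists, with filled points past an adjusted p-value under 0.05 and a bar at the list median. The medians are 0.80 for the 7 cathepsins and 0.80 for the macrophage markers, 0.46 for delivery and activation, and 0.21 for lysosomal proteins. For other cathepsins the median is -0.62. For other inhibitors, whose genes differ in both directions, it is -0.32. The median of all genes tested is -0.03.

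Inhibitors of cathepsins outside the 3 cystatins moved in both directions. In the epithelium 7 of 12 were tested, of which 2 passed as higher and 3 as lower, against 27.5% and 29.6% of all genes. Slpi, which inhibits serine proteases such as cathepsin G, rose from 46.2 ± 4.34 to 65.0 ± 9.88 RPKM (adjusted p = 0.00962). Serpinb1a, an inhibitor of neutrophil proteases, fell from 31.2 ± 2.07 to 15.4 ± 2.04 RPKM (adjusted p = 0.000181), and Serpinb6a, an inhibitor of cathepsin G, fell too (log2 fold change -0.80). Ctla2a and Ctla2b, propeptide-like inhibitors of cathepsin L, passed in opposite directions (-0.45 and 0.53), but they are near-identical copies whose reads the counting could have split. Among other cystatins 7 were tested, and the stefin A family members Gm5483 and BC100530 passed as higher and lower (1.08 and -1.15), with the same doubt over copies. In Myc-CaP cells 4 of the 12 inhibitors and no other cystatin were tested in limma, and 0 passed, although 3 (Ctla2a, Serpinb6a and Slpi, named for this count) had an unadjusted p-value under 0.05.

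Genes that deliver or activate cathepsins moved mostly upward in the epithelium, where 6 of 8 passed as higher and 2 as lower and the median log2 fold change was 0.46. For all genes tested the shares were 27.5% and 29.6% and the median was -0.03. Lgmn, which encodes legumain, a protease that processes several cathepsins, rose from 125 ± 5.35 to 245 ± 15.3 RPKM (log2 fold change 0.97, adjusted p = 6.15e-05). Gnptab, part of the enzyme that adds the mannose 6-phosphate tag, rose by 0.72 and Nagpa, which uncovers the tag, by 0.48. Psap, the saposin precursor that also binds procathepsin D, rose from 1063 ± 29.7 to 1493 ± 67.0 RPKM. Sort1, the receptor sortilin, fell from 30.6 ± 2.14 to 13.7 ± 2.46 RPKM (log2 fold change -1.11), and Gnptg, another part of the tagging enzyme, fell by 0.33. In Myc-CaP cells all 8 were tested, and Psap alone passed, falling from 372 ± 3.61 to 278 ± 7.46 TPM (adjusted p = 0.0185). In that line 6.43% of all genes tested passed in either direction. Lgmn there was 23.1 ± 1.42 and 23.9 ± 1.91 TPM.

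Of 41 other lysosomal proteins tested in the epithelium, 21 passed as higher and 8 as lower, and the list's median was 0.21 on the log2 scale. Over all genes tested, 27.5% passed as higher and 29.6% as lower, and the median was -0.03. The largest rises were of Npc1, a cholesterol exporter (1.18), Lipa, the acid lipase (1.05), Tpp1, a tripeptidyl peptidase (0.83), and Asah1, the acid ceramidase (0.76). The largest falls were of Smpd1, the acid sphingomyelinase (-0.69), Gaa, the acid glucosidase (-0.66), Laptm4a (-0.54) and Glb1, the beta-galactosidase (-0.52). Of the 4 MiT/TFE transcription factors, which drive lysosomal genes, Tfec, the one known from myeloid cells, went from 0.325 ± 0.056 to 2.86 ± 0.226 RPKM, and Mitf and Tfe3 passed as higher as well (0.55 and 0.22), while Tfeb had 10.0 ± 0.627 and 8.84 ± 0.570 RPKM and did not pass. In Myc-CaP cells 40 of the 41 were tested and 4 passed, Arsb (0.76), Fuca1 (0.44) and Laptm4a (0.34) as higher and 1 as lower. The share over all genes tested in that line was 6.43% in either direction. Of 3 MiT/TFE factors tested there in limma, 0 passed or had an unadjusted p-value under 0.05.

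Of 7 serine proteases that dipeptidyl peptidase I, the product of Ctsc, activates, 6 were tested in the epithelium, and 2 passed as higher and 3 as lower. The shares over all genes tested were 27.5% and 29.6%. Prtn3 and Gzmb passed as higher by 0.42 and 0.36 on the log2 scale. The mast cell chymase Cma1 fell from 68.9 ± 2.75 to 14.4 ± 5.19 RPKM (log2 fold change -2.23, adjusted p = 0.000119), Ctsg is given above, and Prss57 fell by 0.37. In Myc-CaP cells 1 of the 7 was tested in limma and did not pass, nor at an unadjusted p-value under 0.05.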

How the data were processed

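Per the methods, paired-end reads were aligned to GRCm38/mm10 with TopHat2 and counted per gene, by strand, with HTSeq-count. The submitters' processing notes name HISAT2, HTSeq, DESeq2 and mm10 instead, and which aligner made the files is not settled. The authors deposited RPKM for the epithelium and TPM for Myc-CaP cells, and the gene lengths behind both are not given in the sources used here. Per-sample and series tables were compared and 0 values differed. All 10 samples carry a growth text on Myc-CaP culture and a treatment text on the epithelial sort, and the study also describes sorted Myc-CaP tumours, so growth in culture is read from the labels only.

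Each table was fitted on its own as log2(value + 1) for genes with a mean of at least 0.5, using limma 3.58.1 under R 4.3.3 (trended eBayes), no covariate, two-sided, with Benjamini-Hochberg adjustment over all genes tested and calls at an adjusted p under 0.05. Fold changes on this scale understate those of low genes. The study's own count test (DEGseq) needs counts, which RPKM and TPM are not. Code was tested on simulated data. The 10 genes, the gene lists and the tests were chosen with earlier results of these data known. In each other list the called genes with the largest absolute change were named, up to 4 per direction, with marker genes given as a check of the cells. List counts include every gene of the list, but a few genes have no values of their own reported here, nor all of the allele names. Depths are estimates from the steps between low values with GENCODE M21 lengths, and no counting interval is given. Gene positions are from GENCODE M21, promoters from RefSeq. Alternatives were other pseudocounts, filters, scalings, no trend, a replicate block and leaving out each library.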

Additional observations from a re-analysis of the deposited data

Results flagged for a closer look

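For 11 genes, every library labelled Arid1a-deleted lay on one side of its controls in the epithelium and on the other side in Myc-CaP cells. The difference between the systems was not tested, since the tables were normalised apart and use different controls. Of the cystatins, Cstb had a log2 fold change of 0.26 in the epithelium and -1.80 in Myc-CaP cells, and Cst3 had -0.68 and 0.35. Arid1a itself had 0.25 and -0.59. Of the genes around the cathepsins, Psap had 0.49 and -0.42, Gnptg -0.33 and 0.21, Laptm4a -0.54 and 0.34, Gaa -0.66 and 0.29, Glb1 -0.52 and 0.19, and Fuca1 -0.32 and 0.44. Of the inhibitors, Serpinb6a had -0.80 and 0.17 and Ctla2a -0.45 and 0.36. No group had the 4 libraries needed to look for a single library far from the others.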

How the results depend on the processing

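In the epithelium, 6 members (Ctsb, Ctsc, Ctsd, Ctsl, Ctss and Ctsz) passed as higher and Cst3 as lower under all 15 alternatives with a refit, with log2 fold changes of Cst3 between -0.72 and -0.39. The refits reuse the libraries on which the genes were picked, so these repeated passes support nothing by themselves. Cstb missed the threshold with no filter, with median centring and with 4 of the 6 libraries left out, and Ctsh passed on rescaling to the same sum (0.33) and with quantile normalization (0.24). On rescaling, the all-gene median went from -0.03 to 0.11, and 64.6% of calls were higher instead of 48.1%. Genes called numbered 9294, and 4037 by the study's thresholds, 5872 with a mean of at least 5, 8823 with the replicate block and 7788 to 8858 with a library left out. In Myc-CaP cells 899 genes were called, and 358 with no filter, 451 without the trend, 2771 with the replicate block and 70 to 113 with a library left out, where the lone sample is assumed to vary like the other group. Members called higher there went from 2 to 0 with the study's thresholds, no filter, median centring, no trend, or any library left out (0 to 0), and to 4 with the block, which added Ctsd and Ctsz. Cstb passed as lower under all 13 alternatives with a refit (-1.84 to -1.76). The replicate letters and numbers are names only. The correlations of same-letter deviations were 0.041, 0.009 and -0.057 in the epithelium, and in Myc-CaP cells, with 2 pairs, 0.195.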
